A study of Homo sapiens with 12 samples.

Results

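The autophagy core genes are 10 genes of the autophagy machinery, taken by name from the count table: ULK1, BECN1, ATG14, ATG9A, WIPI1, MAP1LC3B, GABARAPL1, GABARAPL2, SQSTM1 and TFEB. All 10 were found among the 57353 gene names of the table, and all 10 passed the filter on low counts, which left 12998 genes to be tested. RNA came from MOLM-13, an established human acute myeloid leukemia (AML) cell line that carries FLT3-ITD, an activating internal tandem duplication of the receptor kinase FLT3. The cells were kept for 15 hr in RPMI, the regular medium, or in hBMSC-CM, RPMI mixed with medium in which HS-5 cells, a human marrow stromal line, had grown. In each medium they received DMSO as vehicle or 3 nM quizartinib (AC220), a FLT3 inhibitor, which gave 4 groups with 3 replicates each and 12 RNA-seq libraries in all. All groups are the same cell line, labelled WT, and the stroma is represented only by its medium. The study describes its replicates in general as biological, and the labels do not say how these were raised, so the p-values measure the spread between these libraries.

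Autophagy encloses cytoplasm in a double membrane, the autophagosome, and delivers it to the lysosome for breakdown. The kinase ULK1 starts the process, a lipid kinase complex with BECN1 and ATG14 marks the site, ATG9A and WIPI1 serve the growth of the membrane, and ubiquitin-like proteins of the ATG8 family (MAP1LC3B, GABARAPL1 and GABARAPL2 among them) are attached to it and hold cargo receptors such as SQSTM1. The transcription factor TFEB switches on lysosomal and autophagy genes, and the kinase mTOR, which lies downstream of growth factor receptors, restrains both TFEB and ULK1 by phosphorylation. The libraries measure mRNA. Protein, phosphorylation and the turnover of autophagosomes were not measured in them.

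The library totals lay between 19966546 and 31546104 counts, and the core genes had between 247 and 7127 counts in each library, far above the 3 counts that an absence would allow. Levels of the core and other autophagy genes are given in CPM, each count divided by its library total after TMM scaling and put on a common scale, so they are relative to the other mRNAs of a library. The levels of marker genes and of genes that overlap a member are CPM without TMM scaling. The TMM factors ran from 0.956 to 1.04. Less mRNA per cell and fewer cells cannot be told apart in such values. In other experiments of the study, viable cell numbers held over the course of drug treatment, and the RNA obtained from whole lysates fell with quizartinib. A rise or fall in the text is therefore relative to the other mRNAs, and the change per cell was not tested. Of 10 AML and monocyte marker genes, 9 passed the filter and had counts in every library, among them PTPRC, CD33, FLT3 and SPI1. The other, CD68, had no count in 2 libraries, and MPO was low, with group means of 3.17 to 4.57 CPM. Of 10 stromal marker genes, COL3A1, COL5A1, LUM, DCN, THY1 and POSTN had no count in any library. PDGFRB (group means of 0.267 to 0.783 CPM) and COL1A1 had counts in every library. The summed level of the stromal list was 0.420 to 0.583 CPM with vehicle and 4.99 to 5.81 CPM with quizartinib in RPMI, where no conditioned medium was present, and 0.382 to 0.888 and 1.71 to 2.10 CPM in hBMSC-CM. Nearly all of it in RPMI with quizartinib was COL1A1 (mean 4.76 CPM). The summed level of the AML list was 1055 to 1101 CPM and 1882 to 1918 CPM with vehicle and quizartinib in RPMI, and 1205 to 1222 and 2116 to 2235 CPM in hBMSC-CM. Its members did not all move alike. With quizartinib in RPMI the means of CD33 (89.86 to 78.38 CPM), MPO (3.99 to 3.17) and ITGAM (21.95 to 11.64) fell. Those of PTPRC, FLT3, SPI1, CSF1R, LYZ and CD4 rose. Both sums moved with the drug, and their part in the results was not tested.

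**Figure D1:**
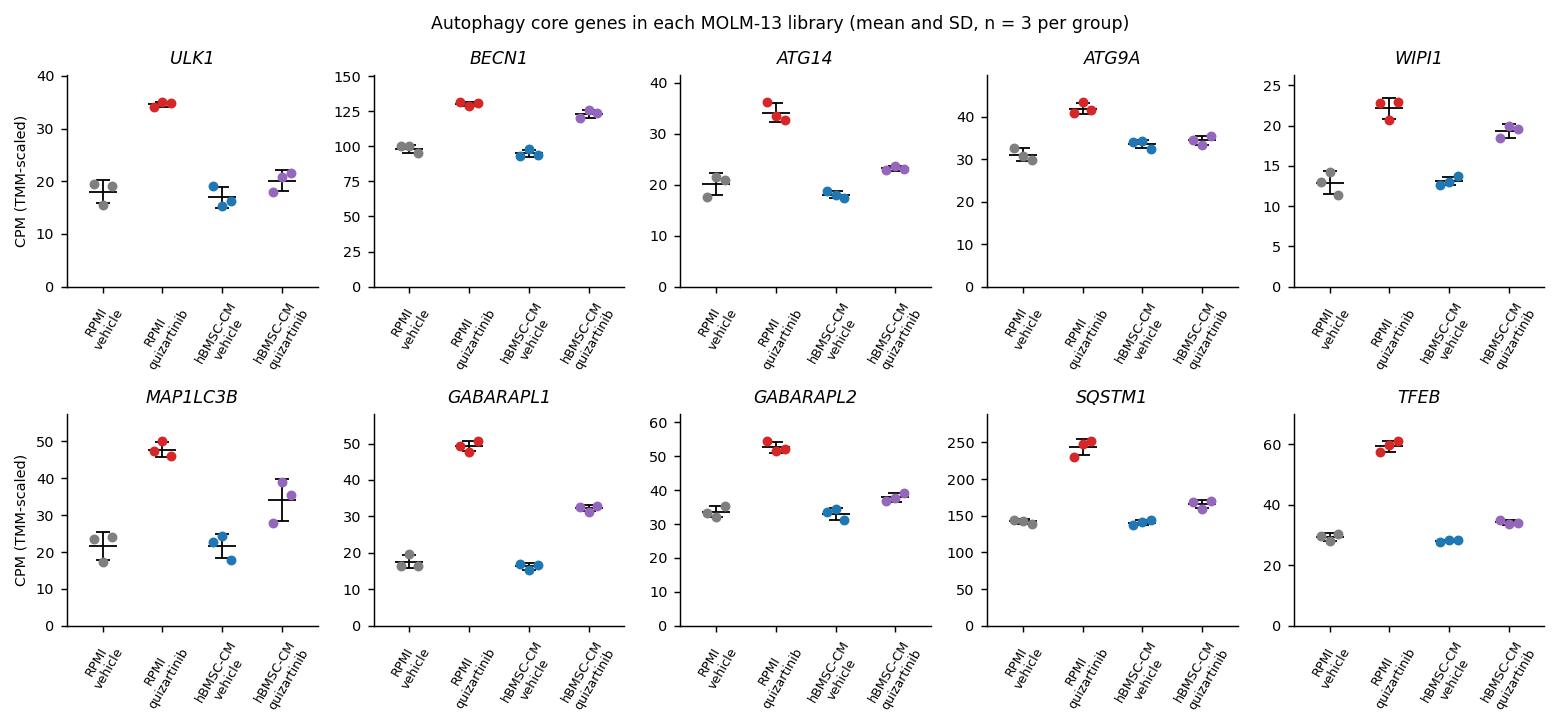
Level of each core gene in the 12 libraries, in TMM-scaled CPM on a linear axis that starts at 0. Points are libraries, horizontal bars are group means and error bars are SDs over 3 replicates, and for each of the 10 genes the 3 quizartinib-treated libraries in RPMI lie highest.

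Upon FLT3 inhibition in RPMI, the mRNAs of all 10 core genes rose. The log2 fold changes (log2 changes for short, with the standard error of the fit as SE) ran from 0.40 for BECN1 to 1.49 for GABARAPL1, with a median of 0.77, where the median over all tested genes was 0.025. The members were chosen with earlier results of these data known, so contrasts with all genes are a description only. The drug moved most of the transcriptome, so the count of calls alone carries little. Of all tested genes 79.3% were called at an adjusted p under 0.05, with 40.1% higher and 39.2% lower. The 3 values of each group did not overlap for 10 of the 10 core genes, and for 81.1% of all tested genes. At least a 2-fold change was called for 3 core genes (MAP1LC3B, GABARAPL1 and TFEB) and for 21.4% of all tested genes. In the order of all log2 changes from lowest to highest, the core genes stood between percentile 71.9 (BECN1) and percentile 96.3 (GABARAPL1).

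In hBMSC-CM the log2 change was smaller for each member, a difference that passed its own test for 8 of them. Of the core genes 9 rose and ATG9A did not pass the test, with a median log2 change of 0.32 against 0.0094 over all tested genes. Of all genes 67.1% were called in this comparison, 33.4% higher and 33.7% lower. The 3 values of each group did not overlap for 8 core genes, all but ULK1 and ATG9A, and for 68.4% of all tested genes. The share of the RPMI log2 change that was seen in hBMSC-CM, as a ratio, differed widely among members. It was 0.933 for BECN1, 0.726 for WIPI1, 0.660 for GABARAPL1 and 0.568 for MAP1LC3B, and 0.461 for ATG14. It was 0.309 for GABARAPL2, 0.307 for SQSTM1, 0.284 for TFEB, 0.242 for ULK1 and 0.0873 for ATG9A.

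**Figure D2:**
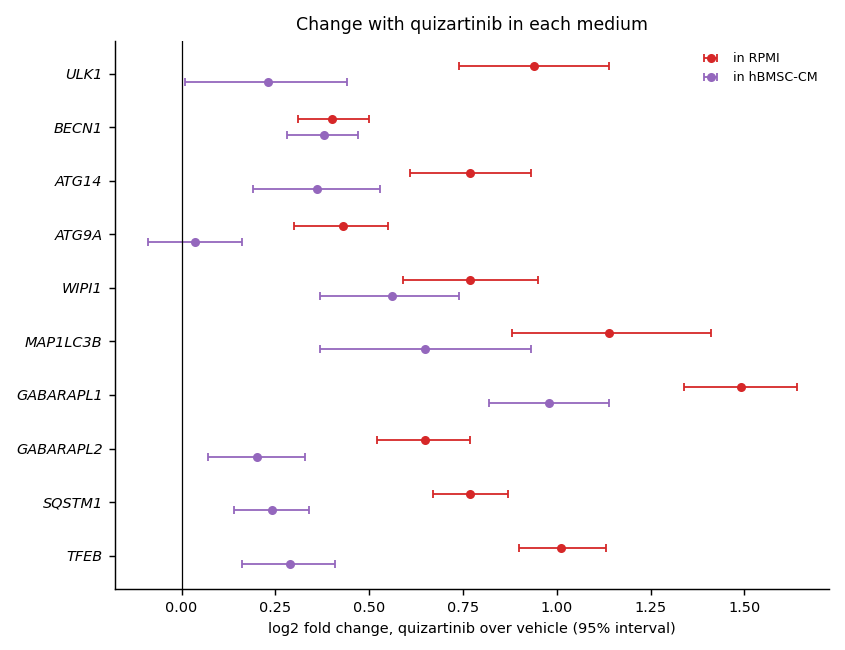
Log2 change of quizartinib over vehicle for each core gene, in RPMI (red) and in hBMSC-CM (purple), with 95% intervals from the SEs of the fit. The change in RPMI lies above that in hBMSC-CM for each of the 10 genes, and the intervals of BECN1 (0.31 to 0.50 and 0.28 to 0.47) nearly coincide.

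The difference between the media in the drug response was tested as an interaction, the log2 change in hBMSC-CM minus that in RPMI. It was called and negative for 8 of the 10 core genes, with a median of −0.47 where the median over all tested genes was 0.01. Of all tested genes 45.2% had a called interaction, 26.1% positive and 19.2% negative. The change in RPMI enters the interaction with a minus sign, and all 10 members rose in RPMI. Genes called higher in RPMI numbered 5211. Among them a called negative interaction was held by 1533 that were also called higher in hBMSC-CM, by 679 not called there and by 61 called lower there. Negative interactions were thus common among genes that the drug raised. TFEB (−0.73) and ULK1 (−0.71) had the most negative values among the members, at percentiles 2.97 and 3.15 of all tested genes. BECN1 had −0.027, with a 95% interval from −0.16 to 0.10 (adjusted p = 0.732), and WIPI1 had −0.21, with an interval from −0.47 to 0.05 (adjusted p = 0.134).

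With vehicle, the medium made no called difference to a core gene. By edgeR's quasi-likelihood test 0 of the 10 passed, none of them at an unadjusted p under 0.05, and 0 passed by DESeq2 and by limma-voom, while 32.1% of all tested genes were called (16.6% higher and 15.5% lower in hBMSC-CM). The log2 changes lay between −0.14 (ATG14) and 0.11 (ATG9A), and the values of the 2 groups overlapped for every member, where the groups were apart for 44.6% of all tested genes. The widest 95% interval was that of MAP1LC3B, from −0.29 to 0.29, so differences of that size were not detectable for it. That count moved with 1 library for ATG14: without replicate 1 of vehicle in RPMI its log2 change was −0.23 and it was called (adjusted p = 0.0196).

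With quizartinib, 9 of the 10 core genes stood lower in hBMSC-CM than they did in RPMI, with a median log2 change of −0.52 against 0.002 over all tested genes. Of all tested genes 69.8% differed between the media under the drug, 35.5% higher and 34.3% lower in hBMSC-CM. The values of the groups did not overlap for 10 of the 10 core genes and for 71.5% of all tested genes. BECN1 was the member that did not pass, with −0.079 and an interval from −0.17 to 0.01 (adjusted p = 0.0805), though its 3 values in hBMSC-CM all lay below those in RPMI. The drug, medium and interaction comparisons share libraries, so they are not independent of each other.

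**Figure D3:**
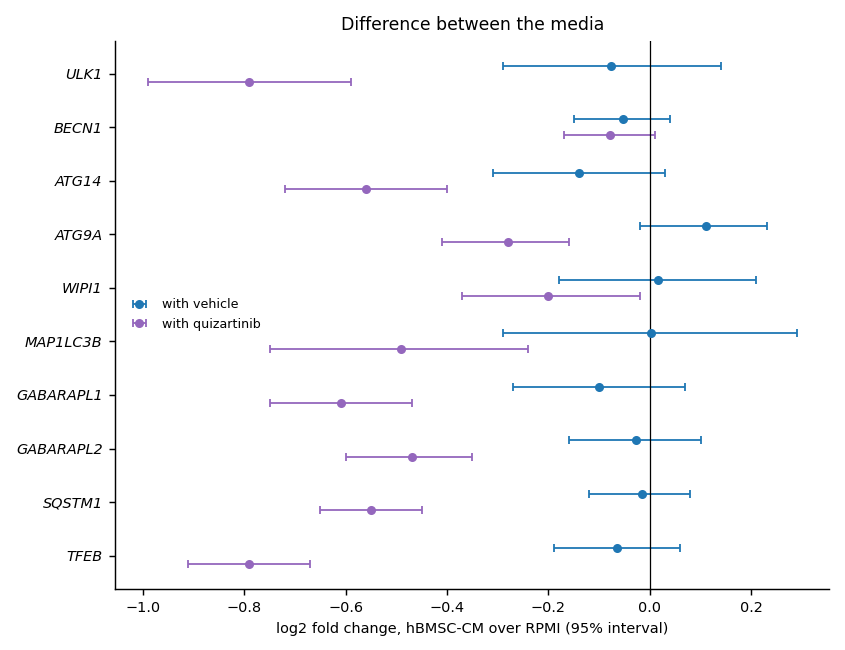
Log2 change of hBMSC-CM over RPMI for each core gene, with vehicle (blue) and with quizartinib (purple), with 95% intervals. With vehicle each of the 10 intervals includes 0, and with quizartinib 9 of them lie below it.

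Levels of different genes are compared here per kilobase of the MANE Select transcript, the reference transcript of each gene. With vehicle in RPMI, SQSTM1 (50.1 CPM per kb), BECN1 (46.6) and GABARAPL2 (34.5) stood highest, followed by TFEB (12.6), MAP1LC3B (10.1), GABARAPL1 (9.32), ATG9A (8.24), WIPI1 (6.76), ATG14 (4.25) and ULK1 (3.38). On the length of all exons of a gene together, SQSTM1, BECN1 and GABARAPL2 were still highest and ULK1 lowest, while ATG9A, at 6.58 CPM per kb, moved to the fourth place. With quizartinib in RPMI, GABARAPL1 (26.2 CPM per kb of the MANE transcript) stood above MAP1LC3B (22.2).

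ULK1 encodes the kinase at the start of the pathway (ENSG00000177169, chromosome 12, 131894622 to 131923150, plus strand, GRCh38). It had 19.5, 15.5 and 19.1 CPM with vehicle and 34.1, 35.0 and 34.8 CPM with quizartinib in RPMI. In hBMSC-CM it had 19.1, 15.4 and 16.3 CPM with vehicle and 17.9, 20.8 and 21.6 CPM with quizartinib. Only the quizartinib-treated libraries in RPMI stood apart, and the other 3 groups overlapped with each other. The rise in RPMI was 0.94 on the log2 scale (SE 0.0860, adjusted p = 2.07e-09). In hBMSC-CM the log2 change was 0.23 (SE 0.0926, adjusted p = 0.0352), and this call was lost on leaving out any of 4 of the 6 libraries compared. Its adjusted p was 0.0948 without replicate 2 and 0.152 without replicate 3 of quizartinib, and 0.153 without replicate 2 and 0.0882 without replicate 3 of vehicle. The interaction (−0.71, SE 0.127, adjusted p = 9.98e-05) was called in every fit that left out a library.

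BECN1 encodes Beclin 1, the regulatory subunit of the lipid kinase complex (ENSG00000126581, chromosome 17, 42810134 to 42833350, minus strand). Its level with vehicle was 100.1, 99.9 and 94.98 CPM in RPMI and 93.2, 97.8 and 93.7 CPM in hBMSC-CM. With quizartinib it was 131, 129 and 131 CPM in RPMI and 120, 126 and 124 CPM in hBMSC-CM. The drug thus separated the libraries in both media, by a log2 change of 0.40 in RPMI (SE 0.0399, adjusted p = 7.68e-09) and of 0.38 in hBMSC-CM (SE 0.0403, adjusted p = 5.82e-08). It was the smallest rise of the members in RPMI. Exons of PSME3 and CNTD1 lie across those of BECN1 on the opposite strand (300 and 795 shared bases), and PSME3 is itself abundant (mean 102 CPM). Use of strand in the counting is not given in the sources used here, so reads on the shared bases cannot be assigned.

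ATG14 encodes the subunit that directs the lipid kinase complex to the forming autophagosome (ENSG00000126775, chromosome 14, 55366391 to 55411830, minus strand). In RPMI it rose from 20.1 ± 2.13 to 34.1 ± 1.81 CPM (SD, n = 3), which is a log2 change of 0.77 (SE 0.0693, adjusted p = 1.51e-09). In hBMSC-CM it rose from 18.1 ± 0.603 to 23.2 ± 0.476 CPM (SD, n = 3), which is a log2 change of 0.36 (SE 0.0737, adjusted p = 0.000241). The interaction was −0.42 (SE 0.101, adjusted p = 0.00207). FBXO34, with a mean of 43.2 CPM, shares 1047 exon bases with ATG14 on the opposite strand.

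ATG9A encodes a membrane protein that moves lipids between the leaflets of the growing membrane (ENSG00000198925, chromosome 2, 219219380 to 219229717, minus strand). It had 32.7, 30.7 and 29.9 CPM with vehicle and 40.7, 43.4 and 41.5 CPM with quizartinib in RPMI, a log2 change of 0.43 (SE 0.0539, adjusted p = 2.88e-07). With quizartinib in hBMSC-CM the values of 34.5, 33.3 and 35.4 CPM overlapped with the 34.0, 34.1 and 32.4 CPM of vehicle. The log2 change there was 0.037 (95% interval −0.09 to 0.16, adjusted p = 0.563), and scaling by library size alone gave 0.14 and a call (adjusted p = 0.0255). The interaction was −0.39 (SE 0.0770, adjusted p = 0.000299). A gene model on the same strand, ENSG00000284820, shares 1833 exon bases with ATG9A and was not analysed here.

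WIPI1 encodes a protein that binds the phosphorylated lipid made by the BECN1 complex (ENSG00000070540, chromosome 17, 68420948 to 68457513, minus strand). It rose from 12.9 ± 1.45 to 22.1 ± 1.29 CPM (SD, n = 3) in RPMI and from 13.1 ± 0.549 to 19.3 ± 0.822 CPM (SD, n = 3) in hBMSC-CM. These are log2 changes of 0.77 (SE 0.0784, adjusted p = 1.18e-08) and 0.56 (SE 0.0806, adjusted p = 3.64e-06). The difference between the media under the drug was −0.20 (adjusted p = 0.0257), and it was no longer called without replicate 1 of quizartinib in hBMSC-CM (adjusted p = 0.112), without replicate 1 or 3 of quizartinib in RPMI (0.0771 and 0.0738), or without the filter on low counts (0.276). Exons of ARSG lie across 829 bases of its exons on the opposite strand. ARSG had a mean of 12.2 CPM without TMM scaling, near the level of WIPI1 with vehicle.

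The largest rises of the core genes in RPMI were those of GABARAPL1 and MAP1LC3B, both of the ATG8 family. GABARAPL1 (ENSG00000139112, chromosome 12, 10212458 to 10223128, plus strand) had 16.6, 19.6 and 16.5 CPM with vehicle and 49.4, 47.8 and 50.6 CPM with quizartinib in RPMI. In hBMSC-CM it had 17.0, 15.3 and 16.6 CPM with vehicle and 32.7, 31.3 and 32.9 CPM with quizartinib. The drug-treated libraries of hBMSC-CM thus lay between the vehicle libraries and the drug-treated libraries of RPMI, without overlap on either side. The rise was 1.49 on the log2 scale in RPMI (SE 0.0651, adjusted p = 8.60e-15), a 2.80-fold change, and 0.98 in hBMSC-CM (SE 0.0686, adjusted p = 8.84e-11), a 1.97-fold change. The interaction was −0.51 (SE 0.0952, adjusted p = 0.000188).

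MAP1LC3B encodes LC3B, the family member most used as a marker of autophagosomes (ENSG00000140941, chromosome 16, 87383953 to 87404779, plus strand). It had 23.4, 17.3 and 24.2 CPM with vehicle and 47.3, 49.9 and 45.9 CPM with quizartinib in RPMI, a log2 change of 1.14 (SE 0.116, adjusted p = 1.05e-08). In hBMSC-CM it had 22.7, 24.2 and 17.9 CPM with vehicle and 27.9, 39.1 and 35.3 CPM with quizartinib, a log2 change of 0.65 (SE 0.120, adjusted p = 7.32e-05). Its replicates differed most among the members, with a coefficient of variation of 17.4%, 15.3% and 16.6% in the 3 groups other than quizartinib in RPMI, where counting alone gives 4.26%, 4.40% and 3.51%. In RPMI with quizartinib it was 4.27%, with 2.89% from counting. The interaction of −0.50 (SE 0.167, adjusted p = 0.0201) was the least secure of the 8 called. It was lost with DESeq2 (adjusted p = 0.0936) and without any of 4 single libraries, namely replicate 1 of quizartinib in hBMSC-CM (−0.36, 0.0561), replicates 1 and 2 of vehicle in hBMSC-CM (−0.45, 0.0524, and −0.41, 0.0673) and replicate 2 of vehicle in RPMI (−0.36, 0.0672). The near-identical gene MAP1LC3B2 had 7 to 29 counts per library, and the named pseudogene MAP1LC3BP1 had 0. FBXO31 (mean 28.9 CPM) shares 60 exon bases with MAP1LC3B on the opposite strand.

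GABARAPL2 (ENSG00000034713, chromosome 16, 75566375 to 75577881, plus strand) was the most abundant member of the family per kilobase. It rose from 33.6 ± 1.60 to 52.6 ± 1.53 CPM (SD, n = 3) in RPMI and from 32.9 ± 1.66 to 37.9 ± 1.32 CPM (SD, n = 3) in hBMSC-CM. The log2 changes were 0.65 (SE 0.0546, adjusted p = 5.75e-10) and 0.20 (SE 0.0565, adjusted p = 0.00392), with an interaction of −0.45 (SE 0.0786, adjusted p = 9.01e-05). GABARAP itself was listed with only 21 to 67 counts per library and rose by 0.96 on the log2 scale in RPMI (SE 0.204, adjusted p = 0.000213). In hBMSC-CM its log2 change was 0.34 (SE 0.210, adjusted p = 0.156). MAP1LC3A and MAP1LC3C had at most 2 and 1 counts in a library and were not tested.

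SQSTM1 encodes p62, the receptor that links ubiquitin-marked cargo to ATG8 proteins and is itself broken down with it (ENSG00000161011, chromosome 5, 179806398 to 179838078, plus strand). In RPMI it had 145, 143 and 139 CPM with vehicle and 231, 248 and 251 CPM with quizartinib. In hBMSC-CM it had 137, 141 and 144 CPM with vehicle and 169, 160 and 169 CPM with quizartinib. The vehicle libraries of the 2 media could not be separated, and both drug-treated groups lay above them. The log2 changes were 0.77 in RPMI (SE 0.0432, adjusted p = 5.77e-13) and 0.24 in hBMSC-CM (SE 0.0436, adjusted p = 6.91e-05), and the interaction was −0.54 (SE 0.0613, adjusted p = 3.77e-07). On the opposite strand MRNIP shares 1582 exon bases with SQSTM1 and MGAT4B shares 105, with means of 13.2 and 58.8 CPM.

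TFEB (ENSG00000112561, chromosome 6, 41683978 to 41736259, minus strand) had 29.7, 28.0 and 30.4 CPM with vehicle and 57.4, 59.6 and 60.9 CPM with quizartinib in RPMI. In hBMSC-CM it had 27.6, 28.4 and 28.3 CPM with vehicle and 35.1, 33.5 and 34.1 CPM with quizartinib. The drug-treated libraries in RPMI stood far above the rest, and those in hBMSC-CM only a little above the vehicle libraries. The rise was 1.01 on the log2 scale in RPMI (SE 0.0511, adjusted p = 9.62e-14) and 0.29 in hBMSC-CM (SE 0.0538, adjusted p = 8.35e-05). The interaction was −0.73 (SE 0.0742, adjusted p = 7.42e-08), and under the drug the log2 change from RPMI to hBMSC-CM was −0.79 (SE 0.0506, adjusted p = 1.31e-11).

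For all 10 members the highest group was quizartinib in RPMI, the next was quizartinib in hBMSC-CM, and the 2 vehicle groups, which did not differ by the test, were lowest. Of the 30 steps between neighbouring groups in these orders, 17 passed the test. The orders were set by the same values, and the steps repeat the group comparisons of the text, so the count adds no separate result. Over all tested genes 69.8% were called for the upper step and 32.1% for the step between the vehicle groups. For the middle step it was 62.1% or, from vehicle to quizartinib in hBMSC-CM, 67.1%. Besides the 10 steps between the vehicle groups, the steps that did not pass were the upper step of BECN1, the step from vehicle in RPMI to quizartinib in hBMSC-CM for ULK1 (log2 change 0.15, adjusted p = 0.154), and the step from vehicle to quizartinib in hBMSC-CM for ATG9A. Set against vehicle in RPMI, the cells under quizartinib in hBMSC-CM had higher levels of 9 core genes, all but ULK1. Of all tested genes 62.1% were called in that comparison and 30.6% were higher. Its largest value among the members was that of GABARAPL1 (0.88) and its smallest called value was that of ATG9A (0.14, adjusted p = 0.027).

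As a description of likeness, the root mean square difference of log2 CPM over the 12 libraries, with each gene centred on its own mean, was smallest between GABARAPL2 and SQSTM1 (0.0905), followed by ATG14 and GABARAPL2 (0.117), ATG14 and SQSTM1 (0.117), and ULK1 and TFEB (0.118). The difference is not scaled by how much a gene moves. A member's own root mean square around its mean ran from 0.164 (ATG9A) to 0.659 (GABARAPL1), so the values do not rank closeness between members. Among the 9278 other genes that averaged 10 CPM or more, the nearest to SQSTM1 were TSPYL1 (0.0474) and NBAS (0.0497), and the nearest to TFEB were KDM4A (0.0637) and RNF125 (0.0658). GABARAPL1 was nearest to ALDH3B1 (0.0708) and ADA2 (0.0886), ULK1 to PLEKHM1 (0.0851) and GATAD2B (0.0864), and BECN1 to CHMP2A (0.0425) and SCP2 (0.0481). For the others the nearest genes were KIAA2026 (0.0506) and XRN1 (0.0566) for ATG14, QARS (0.0549) and MAP2K2 (0.0566) for ATG9A, and YIPF4 (0.0772) and RNF130 (0.0784) for WIPI1. MAP1LC3B was nearest to GMIP (0.125) and HEXIM1 (0.129), and GABARAPL2 to PWWP3A (0.0471) and COX19 (0.0480). Of these genes, PLEKHM1 is itself on the list of autophagy genes described next.

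A wider list of 69 other autophagy genes, ordered by role and also chosen with earlier results of these data known, held 62 tested genes. ULK2, MAP1LC3A, MAP1LC3B2, MAP1LC3C, OPTN, BNIP3 and RETREG1 did not pass the filter and had at most 29 counts in a library. In RPMI quizartinib raised 41 of the 62 and lowered 11, with a median log2 change of 0.46, where 40.1% of all tested genes were higher and 39.2% lower. In hBMSC-CM it raised 38 and lowered 9, with a median of 0.23, against 33.4% and 33.7% of all tested genes. The interaction was negative and called for 27 and positive and called for 6, with a median of −0.18, against 19.2% and 26.1% of all tested genes. Of the 27, 24 were called higher in both media and 2 in RPMI only, and negative interactions were common among all genes that rose in RPMI. With vehicle 18 of the 62 differed between the media, 6 higher and 12 lower in hBMSC-CM, a share near the 32.1% of all tested genes. Under the drug 46 differed, a share near the 69.8% of all tested genes, with 12 higher and 34 lower (35.5% and 34.3% of all tested genes) and a median of −0.22.

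**Figure D4:**
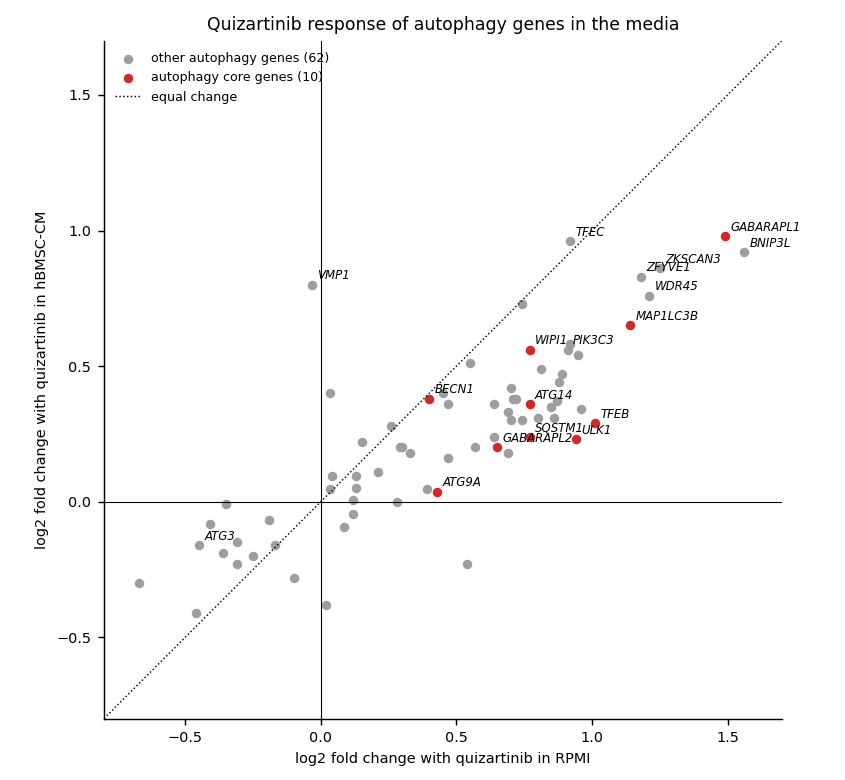
Log2 change with quizartinib in hBMSC-CM against that in RPMI, for the 10 core genes (red) and the 62 other tested autophagy genes (grey), with a dotted line of equal change. The core genes lie right of 0 and below the line, while VMP1 lies far above it and ATG3 is among the genes that fell in RPMI.

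By role, the counts include the core genes and are to be read against the 79.3% of all tested genes that were called in RPMI, 40.1% higher and 39.2% lower. Of the 11 genes of the conjugation machinery, which attaches ATG8 proteins to lipid, 2 rose, 3 fell and 6 did not pass the test in RPMI, with a median log2 change of 0.032. ATG3, the enzyme that makes the final transfer to lipid, fell from 95.5 ± 2.36 to 69.8 ± 2.66 CPM (SD, n = 3) in RPMI, which is a log2 change of −0.45 (SE 0.0451, adjusted p = 8.39e-09). ATG4C, a protease that trims ATG8 proteins, rose by 0.89 (SE 0.0571, adjusted p = 5.73e-12). The other calls, named after their values were seen, were ATG12 (0.33), ATG5 (−0.31) and ATG16L1 (−0.35). ATG4D had an interaction of −0.40 (adjusted p = 0.00196), with 0.019 in RPMI and −0.38 in hBMSC-CM, and ATG4C one of −0.42 (adjusted p = 0.000283). Of the 11 genes, 2 had a called negative interaction and 3 a called positive one, against 19.2% and 26.1% of all tested genes. The positive ones, also named after their values were seen, were ATG3 (0.30), ATG16L1 (0.35) and ATG16L2 (0.37).

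Of the 4 tested genes of the ULK1 complex 3 rose and 1 fell in RPMI, where 40.1% of all tested genes rose and 39.2% fell. RB1CC1, the scaffold FIP200, rose by 0.85 (SE 0.0460, adjusted p = 3.06e-13) and ATG13 by 0.47 (adjusted p = 1.56e-08). Of the 8 genes of the lipid kinase complexes 6 rose and 1 fell, against the same shares. PIK3C3, the catalytic subunit, rose by 0.91 in RPMI (SE 0.0556, adjusted p = 2.46e-12), with an interaction of −0.35 (adjusted p = 0.00113), and UVRAG, the subunit of the complex that lacks ATG14, by 0.64 (interaction −0.40, adjusted p = 0.000293).

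Among the 10 genes of ATG9 and membrane growth 9 rose in RPMI, against 40.1% of all tested genes, and WDR45 (1.21), a relative of WIPI1, and ZFYVE1 (1.18) had the largest called values. VMP1, a membrane protein of the endoplasmic reticulum that acts in autophagosome formation, had an interaction of the opposite sign to those called in core genes. Its means were 86.1 CPM with vehicle and 84.0 CPM with quizartinib in RPMI, and 119 and 208 CPM in hBMSC-CM. Its log2 change was −0.034 in RPMI (adjusted p = 0.47) and 0.80 in hBMSC-CM (adjusted p = 7.21e-13), an interaction of 0.83 (SE 0.0592, adjusted p = 2.71e-10).

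Of the 8 tested cargo receptors 6 rose and 1 fell in RPMI, against 40.1% and 39.2% of all tested genes. BNIP3L, a receptor for mitochondria, rose from 50.5 to 149 CPM in RPMI and from 45.2 to 85.6 CPM in hBMSC-CM, with an interaction of −0.64 (SE 0.0591, adjusted p = 1.75e-08). NBR1, a receptor related to SQSTM1, rose by 0.88 in RPMI (adjusted p = 9.11e-14), with an interaction of −0.44. Among the 14 genes of fusion with the lysosome 11 rose and 3 fell, against the same shares. VPS39 rose by 0.95 and TECPR1 by 0.92, and EPG5 (−0.55) and PLEKHM1 (−0.50) had the largest called interactions of that role.

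Of the 13 genes of transcription and nutrient control 10 rose and 2 fell in RPMI, against 40.1% and 39.2% of all tested genes. ZKSCAN3, described as a repressor of autophagy genes, rose by 1.25 (SE 0.0701, adjusted p = 5.98e-13). TFEC, a relative of TFEB, rose by 0.92 in RPMI and by 0.96 in hBMSC-CM, with an interaction of 0.04 (95% interval −0.27 to 0.35). FLCN (−0.51, adjusted p = 2.26e-05) and FOXO3 (−0.49, adjusted p = 3.04e-06) had called interactions of the sign seen in TFEB. In this role 6 genes had a called negative interaction and 1 a called positive one, against 19.2% and 26.1% of all tested genes. The positive one, named after its value was seen, was FNIP2 (0.37). The 2 genes that fell in RPMI, also named afterwards, were FNIP2 (−0.67) and MITF (−0.25), another relative of TFEB.

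The stretches before the start sites are shown for the members with the most negative interactions, ULK1 and TFEB, and for ATG14, whose start region holds the only E-box found. They are the 250 bases before a RefSeq start site in GRCh38.p14, on the strand of the gene, and capitals mark the E-box CACGTG. The windows are chr12:131894372-131894621 (plus strand) for ULK1, chr6:41735609-41735858 (minus strand) for TFEB, which has 3 listed start sites, and chr14:55411831-55412080 (minus strand) for ATG14.
ULK1: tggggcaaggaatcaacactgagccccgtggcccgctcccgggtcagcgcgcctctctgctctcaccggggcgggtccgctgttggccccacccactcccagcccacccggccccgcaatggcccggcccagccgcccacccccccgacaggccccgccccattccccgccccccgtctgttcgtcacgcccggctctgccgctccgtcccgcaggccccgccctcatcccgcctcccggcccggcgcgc
TFEB: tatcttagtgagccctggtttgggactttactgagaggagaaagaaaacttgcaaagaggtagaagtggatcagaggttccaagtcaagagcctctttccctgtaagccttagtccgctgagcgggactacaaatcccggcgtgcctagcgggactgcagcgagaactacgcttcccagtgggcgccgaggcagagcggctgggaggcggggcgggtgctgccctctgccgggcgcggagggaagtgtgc
ATG14: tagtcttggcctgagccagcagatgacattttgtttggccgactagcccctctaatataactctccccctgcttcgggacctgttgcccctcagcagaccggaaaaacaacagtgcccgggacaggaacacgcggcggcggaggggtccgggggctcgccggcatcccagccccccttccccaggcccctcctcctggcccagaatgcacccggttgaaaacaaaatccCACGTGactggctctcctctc

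All 10 members matched the RefSeq table, with 14 start regions of 250 bases before to 50 bases after the start. On either strand CACGTG, the E-box that TFEB and other factors bind, was in 1 of the 14, against 7.26% of all 35116 regions in the table. TGACNNNGC, the core of the antioxidant response element, was also in 1 of the 14, that of MAP1LC3B, against 13.3%. GTAAACA, a forkhead motif, and TGATGNAA, a core shared by C/EBP and ATF factors, were in 0 of the 14, against 3.42% and 3.62%. Among the 13075 regions of tested genes the shares were 9.72% for CACGTG, 15% for TGACNNNGC, 2.59% for GTAAACA and 1.97% for TGATGNAA. These matches describe letters in a window and nothing about the binding of a factor.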

How the data were processed

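Poly-A-selected RNA from 12 MOLM-13 libraries was sequenced. Per the labels and the study's methods, the authors aligned reads with STAR 2.6.0a to hg38, and they deposited raw counts from STAR per gene name, counts of IDs with the same name summed, with replicates kept apart. The counter's use of strand is not given in the sources used here. Groups came from the sample labels. An ATM inhibitor arm in the design text was not analysed here.

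Genes were kept where the raw count averaged 1 or more and the CPM averaged 1 or more over the libraries. Counts were tested with edgeR 4.0.16 in R 4.3.3, using TMM factors, 1 model of 4 group means with 8 residual degrees of freedom, the two-sided quasi-likelihood test and Benjamini-Hochberg adjustment over the 12998 genes, with a threshold of 0.05. Log2 changes in the text are log2 fold changes, and each adjusted p in the text is from this test unless DESeq2 is named. The standard error is the absolute log2 fold change divided by the square root of F, and 95% intervals use 8 degrees of freedom. The test itself uses more degrees of freedom, so these intervals are wider than the test would give. Library totals of 19966546 to 31546104 counts put 3 counts at 0.0951 to 0.150 CPM, which covers counting error only. No libraries were duplicates: chi-square per gene between replicates was 2.66 to 10.5.

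Alternatives were DESeq2 1.42.0, limma-voom (limma 3.58.1), other scaling, other filters, a replicate block, the compared groups alone and leaving out each library. The test was also run on simulated counts in which a small part of the genes changed in the quizartinib group of RPMI. In the data 79.3% of genes were called in RPMI, so that run does not show how the test behaves with so many changes. Gene positions are from GENCODE on GRCh38. The members and lists were chosen with earlier results of these data known. Besides the members, the text names in each role the 2 other genes with the largest called change in RPMI and the 2 with the largest called interaction, with a mean of at least 5 CPM, and for each member the 2 genes nearest in pattern. GABARAP, with a lower level, is named outside this rule as a member of the ATG8 family.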

Additional observations from a re-analysis of the deposited data

Results flagged for a closer look

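The response to quizartinib differed between the media, by the interaction test, for 8 core genes. The log2 fold change in hBMSC-CM minus that in RPMI was −0.73 for TFEB, −0.71 for ULK1, −0.54 for SQSTM1, −0.51 for GABARAPL1, −0.50 for MAP1LC3B, −0.45 for GABARAPL2, −0.42 for ATG14 and −0.39 for ATG9A. Of all tested genes 19.2% had a called negative interaction. Among the 5211 genes called higher in RPMI, as all members were, it was held by 1533 also called higher in hBMSC-CM, 679 not called there and 61 called lower there. The value for MAP1LC3B was lost with DESeq2 and without any of 4 single libraries. The share of mitochondrial counts moved with the groups, at 0.683% to 0.790% with vehicle and 1.02% to 1.10% with quizartinib in RPMI, and 0.458% to 0.614% and 0.683% to 0.947% in hBMSC-CM. Its part in these results was not tested.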

How the results depend on the processing

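No core gene changed direction with a call under any alternative run. The number of core genes called stayed within 1.5 times its value in 79 of 80 alternatives. The exception was the comparison of the media with vehicle, where leaving out single libraries gave 0 to 1 genes, the 1 being ATG14. Of 800 log2 fold changes of core genes under alternatives, 783 kept their side of the threshold, 4 gained a call and 13 lost it. BECN1 was called lower in hBMSC-CM under quizartinib with upper-quartile scaling (−0.13, adjusted p = 0.00724) and with a mean of at least 10 CPM (−0.10, adjusted p = 0.0199), and the other changes are given beside their results. The cause was not tested. Same-numbered replicates showed no shared deviation (r from −0.228 to 0.0979 over 18 pairs), and different-numbered ones had r from −0.152 to 0.231 over 36 pairs. With 3 replicates per group this check cannot show whether the samples were raised in pairs. With the replicate block 10, 9, 9, 0 and 8 core genes were called, as without it, and 10224 of all genes in RPMI against 10307. Library-size scaling moved the median of all genes in hBMSC-CM by 0.1 and the share of higher calls there from 49.8% to 62.8%, upper-quartile scaling moved that share to 60%, and without the filter the share of positive interactions went from 57.6% to 70.6%.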
